A study of Mus musculus with 5 samples.

Results

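The methylation level of CpG cytosines was compared between a teratoma that arose from cells of the culture condition P5_LCDM_1 and a teratoma from the condition P5_a2iL_1, written here as P5_LCDM and P5_a2iL. A teratoma is a tumour of differentiated tissues that grows from pluripotent cells. In this series embryonic stem cells of several culture conditions were injected into tetraploid embryos, the mice were of the strain C57BL/6x129S6, and no culture abbreviation is spelled out in the labels. The labels name no treatment, sex or age. Of the 5 libraries, the 2 compared here come from 1 teratoma sample each (the labels do not say whether tissue was pooled), and 2 further teratomas (P5_2iL and P5_2iL_F) and 1 muscle control are given beside them for reference. With 1 library per side there is no replicate and no test: every difference compares 2 libraries, not 2 conditions, and a difference was called by its size, at 25 percentage points or more. Members were all fixed 1 kb regions and all gene ends with 5 or more cytosines listed in both files. This gave 189642 regions of 829150 that hold a listed cytosine in any library, and 13865 of 21887 protein coding genes. A gene end spans the 1000 bp before and the first 500 bp of the gene record (10862 genes). Where the strand was not given it is the same window at whichever end holds more shared cytosines (3003 genes), which can be the 3' end.

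In mammals DNA methylation sits mainly on the cytosines of CpG pairs. Most CpGs of CpG-poor sequence, in gene bodies and between genes, are methylated, while CpG islands at gene starts are usually not. Genes of developmental transcription factors lie in broad CpG islands that Polycomb proteins bind in cells that do not use them, and imprinted genes carry methylation on the copy from 1 parent only. Reduced representation bisulfite sequencing reads the CpG-rich fraction of the genome. Teratomas are mixed tissue, so a lower share of some cell type and a lower level within its cells cannot be told apart in these libraries.

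Promoter windows of 6 genes are shown first. Among the named genes, windows with 10 or more shared cytosines differed by 25 points or more at 3 genes that were higher in P5_LCDM, all shown, and at 7 that were lower. Of the latter, Mcts2 and the Hox genes Hoxa5 and Hoxd10 are shown, since the imprinted and Hox lists are described further on, and Ddx3y (4.10% against 55.4%), Gm1070 (32.3% against 80.7%), Capn12 (17.8% against 61.1%) and Stk31 (53.3% against 86.7%) are not. Each runs from 250 bases before to 50 after a start in RefSeq (GRCm38.p6, the build mm10), on the strand of the gene. Capitals mark the CpGs at which both libraries list a cytosine. The first 3 were lower in P5_LCDM and the last 3 higher.
Hoxa5: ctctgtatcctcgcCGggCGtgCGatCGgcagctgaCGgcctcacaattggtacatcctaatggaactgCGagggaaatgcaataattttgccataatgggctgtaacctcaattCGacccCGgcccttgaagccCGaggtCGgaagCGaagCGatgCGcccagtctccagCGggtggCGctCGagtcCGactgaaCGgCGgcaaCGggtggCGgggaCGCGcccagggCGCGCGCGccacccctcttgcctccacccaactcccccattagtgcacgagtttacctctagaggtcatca
Mcts2: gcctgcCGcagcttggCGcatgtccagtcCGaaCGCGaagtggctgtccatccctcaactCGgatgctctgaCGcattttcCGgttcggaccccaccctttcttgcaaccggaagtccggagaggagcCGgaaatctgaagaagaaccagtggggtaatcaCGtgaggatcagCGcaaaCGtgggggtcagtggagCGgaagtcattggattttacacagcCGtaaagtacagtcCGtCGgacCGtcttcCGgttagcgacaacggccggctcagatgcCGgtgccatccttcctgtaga
Hoxd10: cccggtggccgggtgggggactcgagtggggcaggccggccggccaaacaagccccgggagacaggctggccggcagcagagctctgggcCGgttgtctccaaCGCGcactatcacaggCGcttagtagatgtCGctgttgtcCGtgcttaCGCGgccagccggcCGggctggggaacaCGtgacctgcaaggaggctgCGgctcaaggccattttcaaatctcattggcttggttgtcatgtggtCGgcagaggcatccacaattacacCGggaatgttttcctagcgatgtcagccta
Sstr4: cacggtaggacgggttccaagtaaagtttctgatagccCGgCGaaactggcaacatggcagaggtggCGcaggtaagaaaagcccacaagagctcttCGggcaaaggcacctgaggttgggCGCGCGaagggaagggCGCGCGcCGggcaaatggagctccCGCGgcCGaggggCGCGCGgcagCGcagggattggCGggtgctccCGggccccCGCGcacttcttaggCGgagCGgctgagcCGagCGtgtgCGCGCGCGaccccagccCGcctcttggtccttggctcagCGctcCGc
Hoxa7: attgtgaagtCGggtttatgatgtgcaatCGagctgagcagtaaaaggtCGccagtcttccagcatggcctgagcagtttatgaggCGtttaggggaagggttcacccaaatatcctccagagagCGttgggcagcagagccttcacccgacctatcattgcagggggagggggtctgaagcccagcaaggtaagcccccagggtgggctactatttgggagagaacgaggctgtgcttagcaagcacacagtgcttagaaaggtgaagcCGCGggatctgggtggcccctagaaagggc
Aldoc: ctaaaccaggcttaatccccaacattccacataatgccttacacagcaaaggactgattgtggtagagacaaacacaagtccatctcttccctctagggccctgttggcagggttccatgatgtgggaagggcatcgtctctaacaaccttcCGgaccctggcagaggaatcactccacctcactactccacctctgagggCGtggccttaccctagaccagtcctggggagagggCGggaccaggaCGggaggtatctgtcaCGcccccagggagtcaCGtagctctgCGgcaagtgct

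The Hoxa5 window (chr6:52204538-52204837, minus strand) held 27 capitalised CpGs of 29. Its 53 shared cytosines averaged 3.14% in P5_LCDM and 72.6% in P5_a2iL, and 52 of them were lower in P5_LCDM. Hoxa5 encodes a homeodomain transcription factor of the thoracic body axis. The other libraries fell on both sides, with 92.6% in P5_2iL, 65.1% in P5_2iL_F and 4.94% in muscle, so P5_LCDM lay at the level of muscle. The Mcts2 window (chr2:152686898-152687197, plus strand) belongs to an imprinted retrogene that lies within another gene, H13, and is expressed from the paternal copy. Its 34 shared cytosines were all lower in P5_LCDM, at 26.7% against 90.1%, beside 96.8% in P5_2iL, 91.1% in P5_2iL_F and 46.1% in muscle. In P5_LCDM single cytosines there ran from 18.8% to 33.3%, below the lowest of P5_a2iL, 40%. The Hoxd10 window (chr2:74691641-74691940, plus strand) averaged 3.35% in P5_LCDM and 44.9% in P5_a2iL over 16 cytosines, of which 8 were lower and 3 higher. Here P5_a2iL stood apart, since P5_2iL had 9.58%, P5_2iL_F 7.81% and muscle 0%.

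Sstr4 encodes a somatostatin receptor. Its window (chr2:148395127-148395426, plus strand) had 46.7% in P5_LCDM and 17.4% in P5_a2iL over 65 cytosines, 50 of them higher, with 9.19% in P5_2iL, 9.46% in P5_2iL_F and 5.36% in muscle. The Hoxa7 window (chr6:52218524-52218823, minus strand) had 67.9% against 34.5% over 14 cytosines, with 12 higher. The other teratomas had 18.8% and 14.3% there and muscle 14.3%. Aldoc, the aldolase isoform of brain, had 58.3% against 10.5% in its window (chr11:78322823-78323122, plus strand). All 13 shared cytosines were higher in P5_LCDM, from 25% to 70% beside 0% to 22.2% in P5_a2iL, and the other libraries had 5.54%, 0.481% and 10.1%. In these last 3 windows P5_LCDM was the highest of the 5 libraries.

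The files listed 4601508 cytosines in P5_LCDM and 4446459 in P5_a2iL, of which 3793358 were shared. Read counts were not among the values, which are percents, so the coverage of a cytosine is unknown and no interval was computed. The error that can be had is the disagreement of the strands of a CpG within a library, which was 14.5 points per cytosine in P5_LCDM and 15.8 in P5_a2iL. Over 82014 regions with 5 or more CpGs read on both strands, the strands of P5_LCDM differed by 25 points or more in 4.41% and those of P5_a2iL in 5.64%, while opposite strands of the 2 libraries did so in 10.4%. This share fell to 5.38% with 10 or more CpGs. Strands share the animal and the library, so this spread leaves out differences between animals.

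P5_LCDM had a smaller share of cytosines above 80% and a larger share from 20% to 80%. The mean level over shared cytosines was 45.5% in P5_LCDM and 47.8% in P5_a2iL. Cytosines above 80% made up 32.4% in P5_LCDM and 36.7% in P5_a2iL, and those from 20% to 80% made up 25.5% and 21.3%. The share below 20% was nearly equal, 42.1% and 42.0%. Of the regions above 80% in P5_a2iL, 34.3% lay between 20% and 80% in P5_LCDM and 0.156% below 20%.

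The sign of the difference depended on CpG density, counted as the listed cytosines within 100 bp. At a density under 5 the level was 69.3% in P5_LCDM and 75.3% in P5_a2iL. At 5 to under 15 it was 65.6% and 69.2%, and at 15 to under 30 it was 35.1% and 35.8%. At 30 or more, where islands lie, the order turned to 5.05% and 4.40%. The difference of -6.07 points in the CpG-poor class thus stood beside one of 0.64 points in the CpG-dense class.

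Of all 1 kb regions, 14277 (7.53%) were lower in P5_LCDM by 25 points or more and 5342 (2.82%) were higher. Among the 35678 regions with a mean density of 15 or more, 688 (1.93%) were lower and 579 (1.62%) higher. With the mean difference of each cytosine's density class subtracted, 9771 of all regions were lower and 7574 higher. In the densest class the order was reversed, with 84 of 10507 regions higher (0.799%) and 29 lower (0.276%). Between genes 9.92% of regions were lower and 2.66% higher. In gene bodies these shares were 6.88% and 3.26%, and at gene ends they were alike, 1.58% and 1.59%. Just inside the threshold, 5363 regions were lower by 25 to under 30 points, and just outside it 8340 were lower by 20 to under 25 points. Higher regions numbered 1996 and 3256 in the same ranges.

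**Figure D1:**
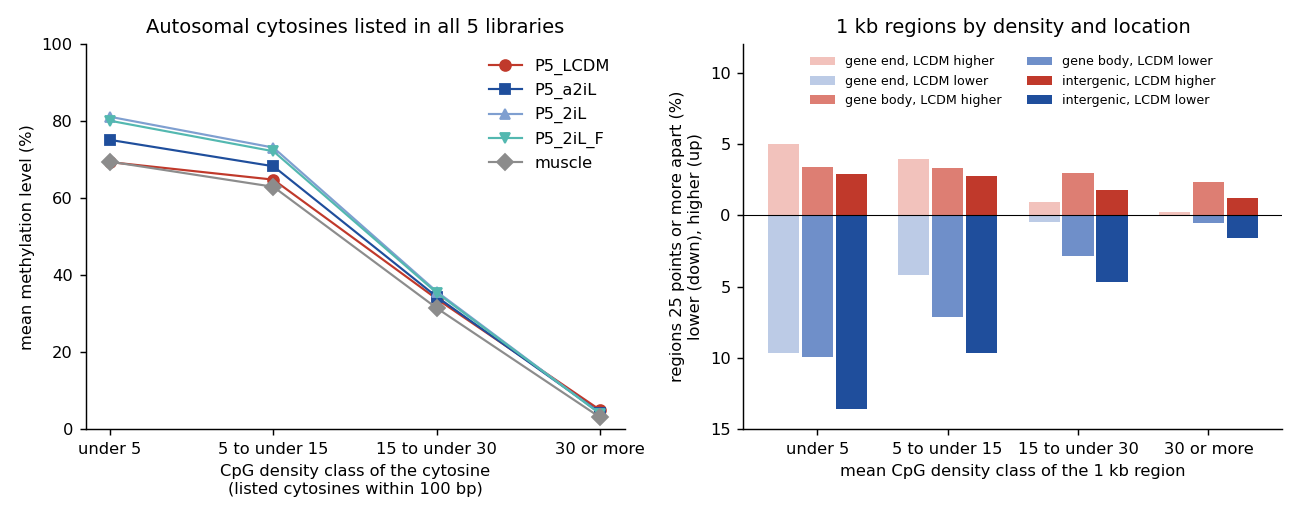
Left, mean methylation level (%) of autosomal cytosines listed in all 5 libraries, by CpG density class, 1 point per library. Right, the share of 1 kb regions that were 25 points or more higher (upward bars) or lower (downward bars) in P5_LCDM than in P5_a2iL, by density class and location; lower regions reach 13.5% between genes at the lowest density, and in gene bodies at a density of 30 or more higher regions (2.33%) outnumber lower ones (0.556%).

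The other 3 libraries, which the rule did not use, show how each kind of region stood in the series. In 10959 lower regions measured in all libraries, the median level was 47.6% in P5_LCDM, 82.4% in P5_a2iL, 86.7% in P5_2iL, 85.0% in P5_2iL_F and 68.7% in muscle. The mean of P5_2iL and P5_2iL_F was nearer to P5_a2iL than to P5_LCDM in 89.4% of them, and P5_LCDM was the lowest of all 5 in 75.9%. In the 3926 higher regions the medians were 79.6% in P5_LCDM, 44.0% in P5_a2iL, 76.2% in P5_2iL, 71.8% in P5_2iL_F and 51.8% in muscle. There the pair was nearer to P5_a2iL in 36.9% only. In most higher regions the mean of the pair was thus nearer to P5_LCDM than to P5_a2iL. P5_LCDM was the highest of all 5 in 49.1% of them, and P5_a2iL the lowest in 48.9%. The densest higher regions differed from that: over 81 of them the medians were 51.8% in P5_LCDM, 15.6% in P5_a2iL, 12.9% in P5_2iL, 12.2% in P5_2iL_F and 15.4% in muscle, and P5_LCDM was the highest of all in 75.3%. Since regions were picked for a distance between P5_LCDM and P5_a2iL, the position of either at an extreme is in part set by the choice.

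**Figure D2:**
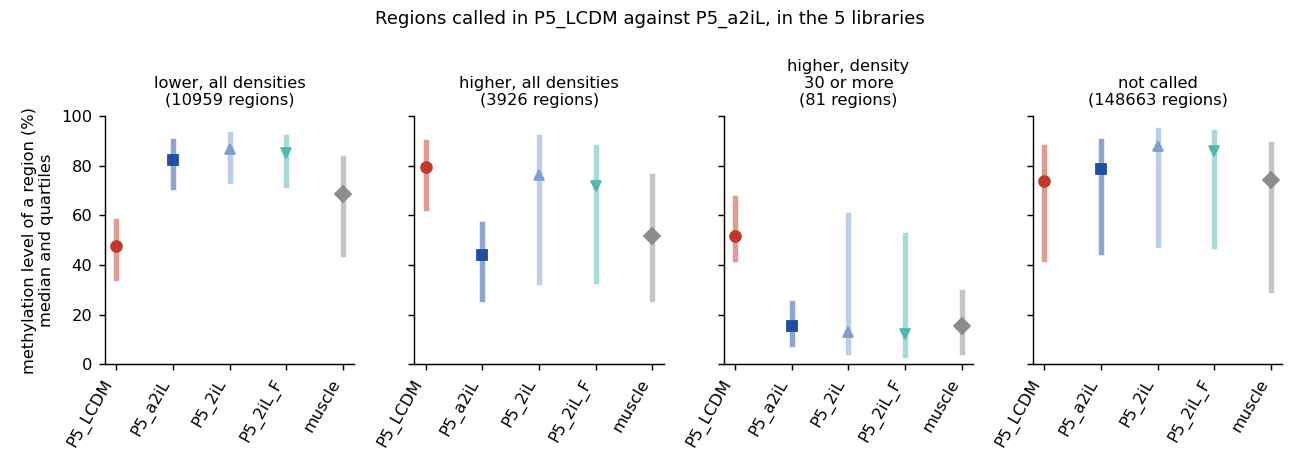
Methylation level (%) of 1 kb regions in the 5 libraries, as the median (symbol) and quartiles (bar) over regions measured in all of them, for regions lower, higher, higher at a density of 30 or more, and not called in P5_LCDM against P5_a2iL. In lower regions P5_LCDM lies at 47.6% under 3 teratoma medians of 82.4% to 86.7%, and in the densest higher regions it lies at 51.8% over 4 medians of 12.2% to 15.6%.

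In 9 genes, among them several that encode developmental transcription factors, 40% or more of the measured regions were higher in P5_LCDM. The view over whole genes was added after values had been seen: it takes all measured regions from 1000 bp before to 1000 bp after a gene, for 4502 genes with 8 or more. Of these, 19 genes had 40% or more of their regions lower, and 1495 had no called region. The 9 genes with 40% or more of their regions higher were Lhx6, Hoxd3, Lhx2, Tbx2, Irx2, Cdkn2a, Snx18, Nfix and Plekhh3. They were chosen after their values were seen. Lhx2, Lhx6 and Irx2 encode homeodomain proteins, Tbx2 a T-box factor and Nfix a nuclear factor I protein, all regulators of embryonic patterning or differentiation. Cdkn2a encodes inhibitors of the cell cycle, and it, Snx18 and Plekhh3 are not transcription factors.

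At Lhx6, a LIM-homeodomain gene of forebrain interneurons, 7 of 10 regions were higher. The mean level over its regions was 48.6% in P5_LCDM, 19.04% in P5_a2iL, 23.2% in P5_2iL, 21.5% in P5_2iL_F and 20.7% in muscle. At Lhx2, which patterns forebrain and eye, 10 of 18 regions were higher, with means of 43.2% and 19.6% beside 17.7%, 18.1% and 22.3% in the other libraries. Tbx2 had 5 of 10 regions higher, at 35.4% and 9.29% beside 7.44%, 7.62% and 14.3%. Irx2 had 4 of 8, at 26.6% and 8.31% beside 10.6%, 6.39% and 17.8%. Cdkn2a had 4 of 9, at 35.3% and 6.61% beside 6.07%, 10.3% and 5.85%. In each of these genes P5_LCDM had the highest mean of the 5 libraries. Nfix had 20 of 46 regions higher and 1 lower, at 64.4% and 44.9%, but there the other teratomas lay between, at 54.1% and 53.5%, with muscle at 30.5%.

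In Lhx2, Lhx6 and Cdkn2a the region nearest to the start was low in both teratomas, and the higher regions lay further in. At Lhx2 the region 0.229 kb after the start had 0.302% in P5_LCDM and 0.384% in P5_a2iL over 81 cytosines, and that 12.2 kb after it had 2.005% and 2.79% over 148. The regions at 1.23 and 2.23 kb were higher on 5 cytosines each, and from 13.2 to 18.2 kb all 5 measured regions were higher, at 38.6% to 53.2% against 6.12% to 12.6%. At Lhx6 the first 2 measured regions after the start had 0% and 5.25% in P5_LCDM, and the next 3, up to 4.49 kb, had 51.8% to 59.5%. Among runs of 4 or more higher regions the largest difference was at Cdkn2a (chr4:89272001-89278000), where 5 called regions of 6 had 56.9% in P5_LCDM and 10.6% in P5_a2iL, beside 9.68%, 10.9% and 6.16% in P5_2iL, P5_2iL_F and muscle. Its regions at 0.119 and 12.1 kb from the start stayed at 1.11% and 1.33%. The Tbx2 run (chr11:85834001-85841000) had 54.5% against 8.81%, and the Lhx2 run (chr2:38352001-38358000) had 45.5% against 9.61%.

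The Hox genes, which encode the homeodomain factors of the body axis in 4 clusters, had 28 of 195 regions higher (14.4%) and 6 lower (3.08%), beside 2.82% and 7.53% of all regions. Over all protein coding genes 2.94% of regions were higher and 5.83% lower. The median difference over the regions of the Hox genes was 1.82 points, beside -1.70 points over all regions. Among their CpG-dense regions (a density of 15 or more) 14 of 111 were higher and 1 was lower, beside 1.62% and 1.93% of all dense regions. The Hoxd cluster held 17 of the higher regions among 49 and 1 lower one, with a mean of 33.9% in P5_LCDM, 19.6% in P5_a2iL, 17.9% in P5_2iL, 18.1% in P5_2iL_F and 25.3% in muscle. The Hoxb cluster had 7 of 51 higher and the Hoxa cluster 4 of 51, with 1 and 3 lower. The Hoxc cluster had none of 44 higher and 1 lower, at 11.8% and 15.5%. Hoxd3, whose record covers Hoxd4, overlapped 12 higher regions of 21, and in muscle its mean of 38.8% was nearer to P5_LCDM (46.3%) than to P5_a2iL (22.8%).

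At Hox gene ends 3 of 35 measured members were called higher and 1 lower, with a median difference of 0.90 points. The Hoxd4 window had 50.5% in P5_LCDM and 17.9% in P5_a2iL over 10 cytosines, and Hoxa7 had 67.1% and 34.8% over 46. The Hoxd10 window at the start of the gene record had 39.0% and 12.7% over 37 cytosines, whereas the promoter window printed above, which lies further within the record, differed the other way. The lower member was Hoxa5, with 35.9% against 76.5% over 129 cytosines and differences of -37.3 and -44.2 points on its strands. The Hoxa cluster thus held gene ends called in both directions.

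Homeobox genes outside the Hox clusters had 42 of 845 regions higher (4.97%) and 31 lower (3.67%), and among their 491 dense regions 20 were higher (4.07%) and 3 lower (0.611%). Over all regions these shares were 2.82% and 7.53%, over all protein coding genes 2.94% and 5.83%, and over all dense regions 1.62% and 1.93%. Of the 42 higher regions, Lhx2, Lhx6 and Irx2, already picked above for their values, held 10, 7 and 4. A higher region occurred in 22 of 113 genes of the list and a lower one in 11. Lower regions numbered 11 of 75 at Cux2, which had 2 higher, 4 of 20 at Meis2, 4 of 31 at Lmx1b and 3 of 6 at Isl1. None of the list's 104 measured gene ends was called. Genes of the Pax, Sox, T-box, Gata and forkhead families had 46 of 893 regions higher (5.15%) and 31 lower (3.47%), and of 335 dense regions 19 were higher (5.67%, beside the same 1.62%) and 0 lower. Their members included Gata3 with 4 of 19 regions higher, Tbx3 with 3 of 10, Gata6 with 2 of 7 (40.6% against 24.03%) and Foxf1 with 2 of 6 (29.0% against 12.1%). Sox5, a factor of cartilage and neural development, went the other way with 13 of 84 regions lower and 1 higher (67.4% against 80.1%). Pax8, a kidney and thyroid regulator, was the only called gene end of 79, with 88.8% against 28.6% over 7 cytosines of a single strand.

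**Figure D3:**
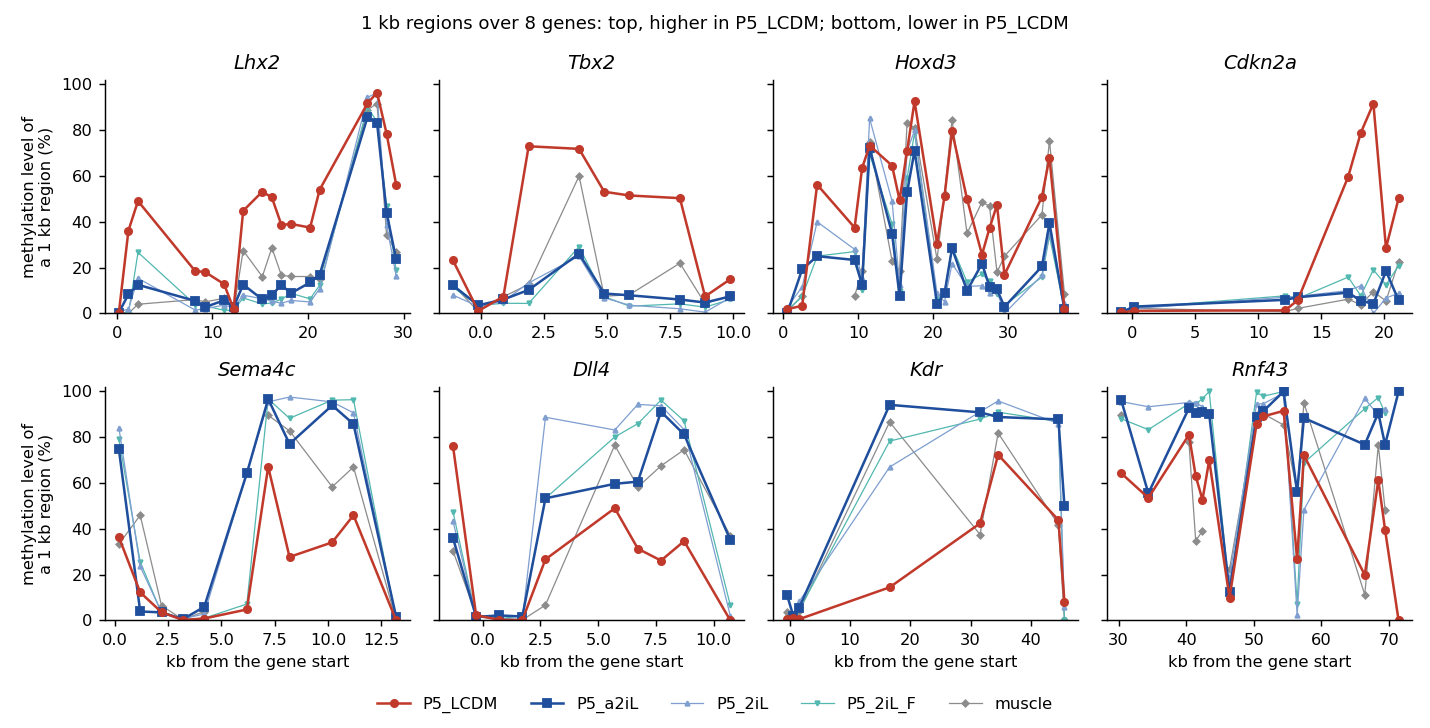
Methylation level (%) of each measured 1 kb region over 8 genes in the 5 libraries, against the distance of its centre from the gene start in kb, along the gene (for Tbx2, whose strand was not given, from the end with the lower coordinate). In the upper row P5_LCDM runs above the other libraries over Lhx2, Tbx2, Cdkn2a and parts of Hoxd3 and meets them near 0 at several starts; in the lower row it runs below P5_a2iL over Sema4c, Kdr, Rnf43 and the later part of Dll4.

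Pluripotency genes had 14 of 212 regions higher (6.60%) and 5 lower (2.36%), and trophoblast genes had 18 of 270 higher (6.67%) and 7 lower (2.59%). Over all regions 2.82% were higher and 7.53% lower, and over all protein coding genes 2.94% and 5.83%. The median differences were 0.12 and 0.26 points. In the first list Nr5a2, a nuclear receptor of early embryo and liver, had 5 of 14 regions higher (53.7% against 38.4%, and 42.3%, 41.6% and 29.0% in P5_2iL, P5_2iL_F and muscle). The Nodal gene end, of a signal that patterns the early embryo, was called with 33.7% against 2.38% over 18 cytosines of a single strand, beside 8.09%, 7.64% and 0% in the other libraries. Pou5f1, the core pluripotency factor, had 1 region higher and 1 lower, at means of 57.2% and 55.0%. Of the trophoblast list, the factors Gata3, Gata2 and Tfap2c held 4, 2 and 2 higher regions, and Fgfr2, a growth factor receptor, held 3. Syna, the fusion protein of placental syncytium, was its gene end called higher (94.0% against 60.9% over 8 cytosines), and Peg10 was the lower one. The lists overlap, so their shares are not separate observations. Gata2, Gata3 and, from the pluripotency list, Tbx3 with 3 higher regions are also counted in the Pax to forkhead list. Gbx2 is also in the homeobox list, and Esrrb is in both the pluripotency and the trophoblast list.

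Of 418 regions over 47 endothelial genes, 59 were lower in P5_LCDM (14.1%, beside 7.53% of all regions) and 18 higher (4.31%, beside 2.82%). Both shares were above those of all regions, while the median difference of -1.68 points was that of all regions (-1.70). Of 34 measured gene ends 5 were lower and 0 higher, beside 1.17% and 1.12% of all gene ends, and the median difference was -2.22 points. These members are surface proteins and regulators of blood vessel lining. The levels of Pecam1, an adhesion molecule between endothelial cells, were 25.1% in P5_LCDM, 76.0% in P5_a2iL, 39.6% in P5_2iL, 53.6% in P5_2iL_F and 29.6% in muscle at its gene end, with differences of -54.5 and -47.4 points on the strands. Nos3, the nitric oxide synthase of endothelium, had 30.2% and 77.0%, beside 87.8%, 81.9% and 50.1%. Eng, a TGF-beta co-receptor, had 4.63% and 42.8%, beside 4.26%, 8.28% and 33.7%. P5_LCDM was below P5_a2iL in all 3, but only for Nos3 did the other teratomas sit with P5_a2iL. Rasip1, a regulator of vessel lumen formation (42.1% against 68.9%), and Angpt2, an angiopoietin (52.3% against 78.8%), completed the 5 on 5 and 8 cytosines.

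Over whole genes, Kdr, the main VEGF receptor, had 4 of 8 regions lower at 23.0% against 53.8%, beside 44.5%, 43.8% and 32.2%. Its 3 regions around the start were at most 1.22% in P5_LCDM. In the region 16.6 kb after the start the level was 14.5% in P5_LCDM and 94.2% in P5_a2iL over 10 cytosines, with 67%, 78.3% and 86.7% in the other libraries. Egfl7, a secreted endothelial factor, had 3 of 6 regions lower (20.4% against 47.7%), Cdh5, the cadherin of endothelial junctions, 2 of 4 (51.4% against 78.5%) and Plvap 3 of 5 (17.8% against 39.9%). The single region of the apelin receptor gene Aplnr had 16.9% against 61.4%. Dll4, a Notch ligand of arteries, had 5 of 10 regions lower, from 2.72 kb after the start onward, while the region 1.28 kb before it was higher (76.1% against 35.9% over 44 cytosines). With the strands of each CpG averaged, which leaves fewer regions, its mean difference was 0.70 points. Nr2f2, a factor of veins that also acts in mesenchyme, had 3 of 9 regions higher and none lower (22.9% against 11.3%). Prox1 had 2 of 13 higher and none lower, Vwf 2 of 23 higher and 1 lower, and Flt1 4 of 42 higher and 4 lower. Mean differences were positive for Notch4 (3.61 points), Ets1 (2.23) and Flt4 (1.75). Of the 47 endothelial genes, 25 held a lower region and 11 a higher one, so the list was not uniform.

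Over all protein coding genes 5.83% of regions were lower and 2.94% higher, and of all gene ends 1.17% were lower and 1.12% higher. Neuronal and glial genes had 68 of 663 regions lower (10.3%) and 9 higher (1.36%), with a median difference of -3.23 points; their called gene end of 58, Nefm, a neurofilament, had 4.44% in P5_LCDM, 35.1% in P5_a2iL, 14.4% in P5_2iL, 16.8% in P5_2iL_F and 1.13% in muscle over 126 cytosines. Skeletal muscle genes had 1 gene end higher (Mymx, a fusion factor of myoblasts, in a window shared with Slc29a1) and 1 lower (Casq2, a calcium-binding protein) of 45. Epithelial and gut genes had 3 higher and 1 lower of 69: Krt80, Tmem79 and Sfn were higher and Fabp2, a fatty acid binding protein of gut, was lower. Mesenchyme, bone and cartilage genes had 3 higher and 2 lower of 53 gene ends. Over their regions the balance was the other way, with 61 of 633 lower (9.64%) and 16 higher (2.53%) and a median difference of -4.43 points. The higher ends were Zeb2, a repressor of epithelial genes, at 49.0% against 0.946%, Col1a1 at 65.4% against 37.7% and Col9a3 at 55.6% against 27.9%. Tcf21 and Col5a2 were lower. Zeb2 rests on 9 cytosines, with differences of 58.2 and 12.4 points on the strands, and its RefSeq promoter window had 1.196% against 0% over 19 cytosines. Leukocyte genes (34 measured) and adipose genes (22) had no called gene end, and erythroid and megakaryocyte genes had 1 of 10, the platelet factor gene Pf4 (22.3% against 55.9%). Of 485 regions over leukocyte genes, however, 40 were lower (8.25%) and 10 higher (2.06%). Their 75 dense regions held 5 lower (6.67%, beside 1.93% of all dense regions) and none higher. Of 309 regions over adipose genes 18 were lower (5.83%) and 8 higher (2.59%).

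**Figure D4:**
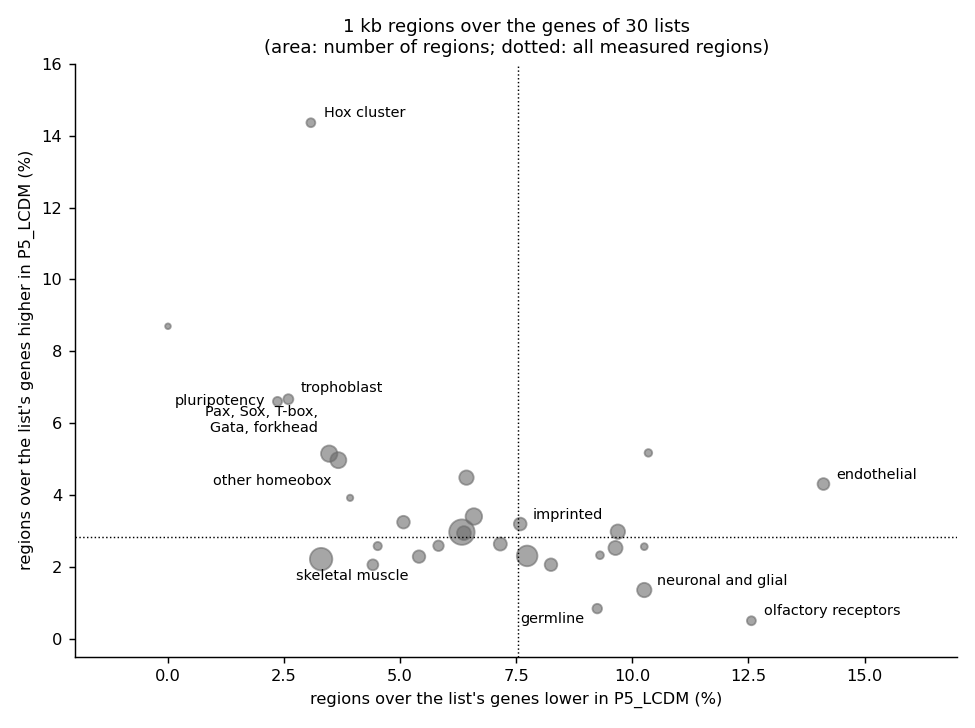
Share of 1 kb regions over the genes of each of 30 lists that were lower (x axis, %) or higher (y axis, %) in P5_LCDM than in P5_a2iL, 1 point per list, with an area that grows with its number of regions; dotted lines mark all measured regions, at 7.53% and 2.82%. The Hox cluster lies highest at 14.4% and the endothelial list farthest right at 14.1%.

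Imprinted genes had 4 lower and 0 higher gene ends of 50, in 3 distinct windows, and a median difference of -0.05 points. Of all gene ends 1.17% were lower and 1.12% higher. Of 501 regions over imprinted genes 38 were lower (7.58%) and 16 higher (3.19%), near the 7.53% and 2.82% of all regions. Over all protein coding genes, without the regions between genes, the shares were 5.83% and 2.94%. The Mcts2 window gave 33.2% in P5_LCDM, 82.4% in P5_a2iL, 97.4% in P5_2iL, 89.6% in P5_2iL_F and 30.6% in muscle over 78 cytosines. Peg10, a retrotransposon-derived gene of placenta, and Sgce, a sarcoglycan gene, start side by side and shared 49 cytosines, at 37.6% against 85.7%, beside 43.1%, 38.5% and 13.1%. Here P5_a2iL alone was high, whereas at Mcts2 the 3 teratomas other than P5_LCDM were high. Ampd3, an AMP deaminase, had 31.2% and 60.4% over 10 cytosines, but 0.189% and 2.56% over 22 in a RefSeq promoter window. Over whole genes Snrpn had 4 of 14 regions lower (54.7% against 72.2%) and Kcnq1 4 of 28 higher (75.4% against 65.4%), so differences of both signs occurred in the list. Its CpG-dense regions held 10 lower and 3 higher of 147, beside 1.93% and 1.62% of all dense regions.

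Germline genes, many of which are held off by promoter methylation in body cells, had 5 lower and 2 higher gene ends of 45, beside 1.17% and 1.12% of all gene ends. Their median difference was -2.82 points, beside 9.71e-06 over all gene ends. Stk31 had 60.9% in P5_LCDM, 91.3% in P5_a2iL, 100% in P5_2iL and P5_2iL_F and 56.5% in muscle over 23 cytosines, 22 of them on a single strand. Prm1, a protamine of sperm chromatin, had 50% against 78.8%, and Tdrd6, Tdrd7 and Xlr3a were lower as well, although Tdrd7 had 0% in both teratomas in its RefSeq promoter windows. Tnp2, a transition protein encoded near Prm1 on chromosome 16, was higher with 78.7% against 44.2%, and so was Zar1l on 5 cytosines. Olfactory and vomeronasal receptor genes had 2 lower of 40 (Olfr290 and Olfr551), and 25 of 199 regions over them were lower (12.6%, beside 7.53% of all regions) and 1 higher. Of 8 measured Y-linked and X-inactivation genes 2 were lower: Eif2s3y, a translation factor, at 12.5% against 75.8%, and Ddx3y, an RNA helicase, at 4.41% against 40.7%. P5_a2iL was the highest of the 5 libraries at both, since P5_2iL had 21.0% and 11.4%, P5_2iL_F 21.4% and 6.58%, and muscle 0% and 0.779%. The strands of Ddx3y disagreed in size, with -8.10 and -61.9 points.

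Clustered protocadherin genes, which encode neuronal adhesion proteins, had 15 higher and 2 lower gene ends of 40, but of 116 regions over them 6 were higher (5.17%) and 12 lower (10.3%). Of all gene ends 1.12% were higher and 1.17% lower, and of all regions 2.82% and 7.53%. Among the higher protocadherin ends, 12 are gamma cluster members whose records end together and whose windows hold the same 31 cytosines. These had 84.5% in P5_LCDM, 56.8% in P5_a2iL, 88.5% in P5_2iL, 84.6% in P5_2iL_F and 43.3% in muscle. With each set of cytosines counted once, 139 gene ends of all genes were higher instead of 155. Pcdhgb4 (59.7% against 26.4% over 45 cytosines) and Pcdhb15 were higher at windows of their own, as was Pcdha2, and Pcdha7 and Pcdhb5 were lower.

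Of all gene ends 1.12% were higher and 1.17% lower, which is the background for the counts that follow. Among signalling genes, 2 of 67 FGF, hedgehog, Notch and retinoic acid genes were called, both higher. Rara, a retinoic acid receptor, had 68.2% against 0% over 8 cytosines at the start of its record. Its RefSeq promoter windows at other starts were low in both teratomas, with 0% against 0.893% over 28 cytosines, 0% against 1% over 25 and 6.22% against 11.7% over 6. Hes3, a Notch target, had 61.5% against 26.6%, a call that was lost in a window of 500 bp on each side. Of 52 Nodal, BMP and TGF-beta genes Nodal and Ltbp3, a TGF-beta binding protein, were higher and Eng was lower. None of 55 Wnt pathway genes was called, although Rnf43, a membrane ligase that removes Wnt receptors and was not among them, had 8 of 16 regions lower. Tumour suppressor genes had 1 of 51 lower: Dapk1, a death-associated kinase, had 4.29% against 35.9%, with strands at -63.2 and -8.44 points. Zinc finger genes named Zfp had 2 of 292 higher (Zfp750 and Zfp65), solute carriers 4 higher and 1 lower of 259, and collagens 2 and 1 of 31. Of 671 regions over collagens, however, 20 were higher (2.98%) and 65 lower (9.69%), beside 2.82% and 7.53% of all regions. Claudins had 1 gene end higher and 1 lower of 17, and keratins 1 and 1 of 36. DNA and histone methylation genes (36), S100 genes (8) and ion channel genes (91) had none. Over all lists 40 genes were higher and 31 lower. The gamma protocadherins that share 31 cytosines were each counted among the higher ones, and Peg10 and Sgce each among the lower ones. These are thus not counts of distinct windows.

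Of all 13865 gene ends, 155 were higher (1.12%) and 162 lower (1.17%), with a median difference of 9.71e-06 points. By density, 4.22% of the 2443 ends at 5 to under 15 were higher and 4.50% lower, while of the 5740 densest ends 6 were higher and 3 lower. With the mean difference of the density class subtracted, the count of higher ends became 201 and that of lower ends 111, so which direction had more calls depended on the centring. Nearest to the threshold, Mroh6 and Ltf lay at 25 points and Npb and Clec3b just under it at 24.98 and 24.93. On the lower side Septin3 and Tmem72 lay at -25.02 and -25.04, and Slc9a4 and Adcy4 at -24.98 and -24.97. Of 221 called ends with 3 or more cytosines on each strand, 87 were called on each strand and 5 had strands of opposite sign.

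The largest higher gene ends with 10 or more shared cytosines included Plet1, a surface protein of placenta and epithelium, at 96.7% in P5_LCDM and 30.2% in P5_a2iL over 20 cytosines. P5_2iL, P5_2iL_F and muscle had 80%, 91.4% and 88%, so that P5_a2iL stood apart. At Spata4 (81.8% against 9.09%), Cd109, a surface protein that restrains TGF-beta signalling (67.4% against 19.01%), Krt80, Zfp750, a factor of epidermal differentiation (90.1% against 46.8%), and Slc6a14, an amino acid transporter (84.6% against 42.4%), P5_2iL and P5_2iL_F also lay nearer to P5_LCDM. At other ends P5_LCDM was above each of the 4 other libraries by more than 25 points. Dgki, a diacylglycerol kinase, had 87.7% against 27.2% over 13 cytosines, beside 12.4%, 13.7% and 28.5%, while its RefSeq promoter window had 1.67% against 4.16% over 25. Mdk, which encodes the growth factor midkine, had 54.1% against 9.56%, beside 5.36%, 5.94% and 4.20%. Aldoc, Slc26a10 (50.1% against 5%) and Prss57 (68.1% against 8.33%) were of that kind, and so was Efna4, an ephrin ligand, among the densest ends. The Efna4 window had 39.5% over 72 cytosines, against 0.385% in P5_a2iL, 0.488% in P5_2iL, 0.556% in P5_2iL_F and 0.372% in muscle, with strands at 30.4 and 48.4 points.

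The largest lower gene ends with named products included Cldn15, a claudin of gut tight junctions, at 27.1% in P5_LCDM and 86.2% in P5_a2iL over 16 cytosines, beside 99.2%, 81.6% and 21.0% in P5_2iL, P5_2iL_F and muscle. Capn12, a calpain protease, had 25.5% against 76.8%, beside 81.5%, 83.8% and 61.8%. Btnl9, a butyrophilin-like surface protein, had 29.1% against 79.9%, beside 96.0%, 85.9% and 67.2%. Klra3, a receptor of natural killer cells, had 47.1% against 97.5%, beside 90%, 36% and 80%. At Cldn15, Capn12 and Btnl9 the other teratomas sat with P5_a2iL, and at Cldn15 muscle sat with P5_LCDM. On fewer cytosines, Magix on the X chromosome had 16.7% against 86.1%, and Ltb, a lymphotoxin gene, had 24.2% against 87.5%, with 4.17% and 0% in P5_2iL and P5_2iL_F.

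**Figure D5:**
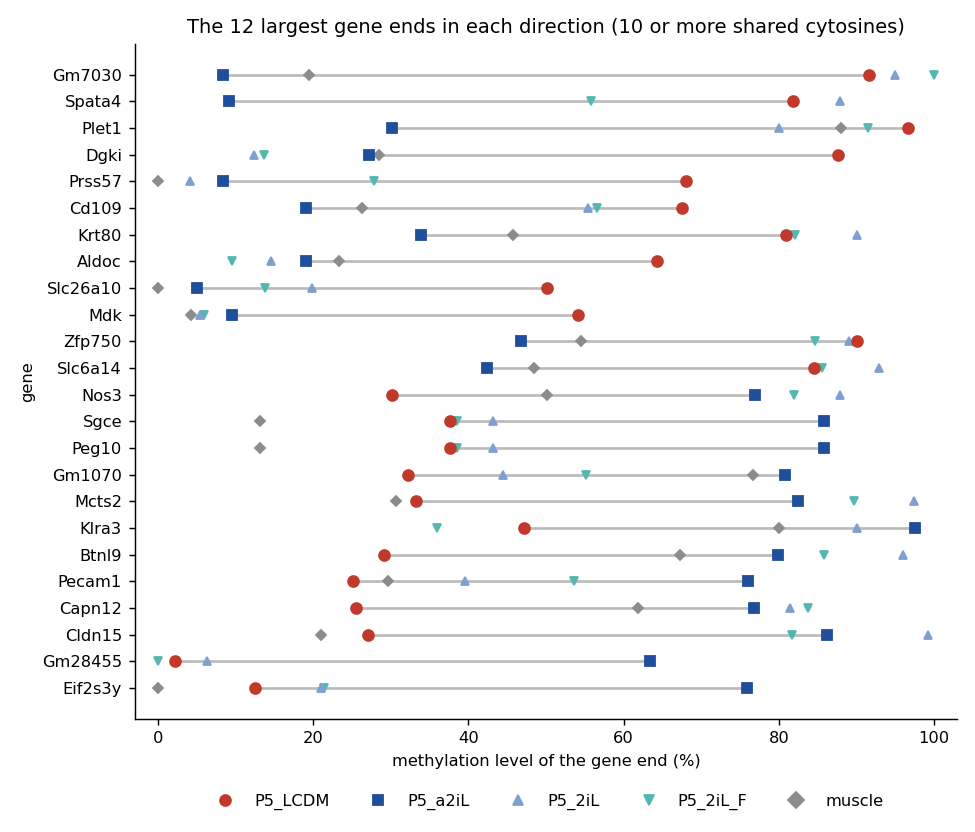
Methylation level (%) of gene ends, the 12 that differed most per direction among those with 10 or more shared cytosines, 1 row per gene and 1 symbol per library, with a line between P5_LCDM and P5_a2iL. For Mdk, Aldoc and Dgki P5_LCDM lies to the right of the 4 others, and for Cldn15, Capn12 and Nos3 the other teratomas lie near P5_a2iL; Peg10 and Sgce share their cytosines.

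Ends on few cytosines reached the extremes of the higher side. Serpinb6c, of a protease inhibitor family, had 89.3% against 0% over 7 cytosines, beside 85.7% and 100% in P5_2iL and P5_2iL_F. The predicted gene Gm7030 had 91.7% against 8.33% over 12, beside 95% and 100%. At both ends P5_a2iL was the teratoma that differed. H3c13, a histone gene whose window overlaps that of H2bc18, had 78.6% against 0% over 7, beside 14.3% and 28.6%, and there P5_LCDM differed. In 137 higher ends measured in all libraries the median was 64.4% in P5_LCDM, 27.8% in P5_a2iL, 42.0% in P5_2iL, 38.8% in P5_2iL_F and 30.2% in muscle. For the 38 of these at a density of 15 to under 30 the medians were 48.1%, 10.1%, 13.9%, 11.5% and 11.6%, and P5_LCDM was the highest in 34. In 138 lower ends they were 37.5%, 74.8%, 79.8%, 78.1% and 44.9%, so muscle lay nearer to P5_LCDM in median.

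The longest lower run lay over Sema4c, a semaphorin of axon guidance (chr1:36549001-36555000), where 5 regions had 38.2% in P5_LCDM and 83.9% in P5_a2iL, beside 91.2%, 86.5% and 74.5%. A run of 4 regions at Rnf43 (chr11:87729001-87735000) had 34.1% and 85.8%, beside 92.8%, 94.2% and 46.5%, and 4 at Dll4 had 27.0% and 63.2%. Among the 19 genes with 40% or more of their regions lower were Arhgap40 with 6 of 10, Klf7, a neuronal transcription factor, with 5 of 9, Cracd with 17 of 34, Smad1, a mediator of BMP signals, with 5 of 11, and Acvr1c, a Nodal receptor, with 4 of 8. With the strands of each CpG averaged the mean difference of Acvr1c was 0.19 points, the other way. Smad1 had 45.4% against 65.5%, beside 71.9%, 71.4% and 54.5%. In Sema4c, Rnf43, Cracd and Smad1 the mean of P5_LCDM was the lowest of the 5 libraries.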

How the data were processed

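Reduced representation bisulfite libraries of 5 mouse samples were used. The deposited files give 1 percent of methylation per cytosine, made by the authors with Trim Galore 0.6.4 and Bismark on mm10 per the submitters' processing notes. No version of Bismark and no coverage minimum is given in the sources used here. Amplified reads of the same molecule cannot be recognised, and depth is known only as cytosines listed, so each cytosine had equal weight.

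Positions were taken as counted from 1: all 433094 listed positions in RefSeq promoter windows are then CpG cytosines. Strands were assigned from neighbouring positions. Differences are P5_LCDM minus P5_a2iL over shared cytosines, in 1 kb regions and gene ends of GRCm38.p6 genes. Of 91 named genes 62 were in the promoter table, which gives 34 windows with 4 or more shared cytosines. Named are the 12 largest gene ends per direction with 10 or more shared cytosines, 4 per density class and direction, up to 5 called members per list and direction, and the 3 longest runs; not every one is described. The members and the 30 gene lists were chosen with earlier results of these data known. The labelled tissues were not checked against markers, since methylation gives none directly. The fixed rule of size stands in for a test. Region code was tested on simulated data. Figures were drawn with matplotlib 3.10.9, and values were computed with pandas 2.3.3 and NumPy 2.4.6 under Python 3.11.15. Alternatives covered the minimum of cytosines, threshold, strands, median, centring and windows.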

Additional observations from a re-analysis of the deposited data

How the results depend on the processing

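No paired analysis was possible because each side holds 1 library. A coverage minimum was not run, since the files give no read counts. Counts of higher and lower regions were 9005 and 23937 of 249403 with 3 or more shared cytosines, and 2233 and 5156 of 106478 with 10 or more. Of 189642 they were 1335 and 3453 at 40 points and 8593 and 23050 with medians. With strands averaged they were 1745 and 3758 of 82014. Where each strand alone passed they were 1167 and 3625 of 132237. The settings thus differed in the number of regions measured as well as in the calls. Lower regions outnumbered higher ones under each of the 10 alternatives; centring by density class gave 7574 and 9771. Higher gene ends numbered 28 of 13865 at 40 points, 103 with strands averaged, 256 of 13865 with medians and 44 of 12898 on each strand alone. They numbered 101 of 11513 at the first start of the promoter table and 99 of 10862 with known strands. Lower gene ends numbered 95 with 10 or more cytosines. Under the first 5 of the settings given for higher ends they numbered 30, 70, 289, 45 and 105. Genes of any list numbered 9 higher and 11 lower at 40 points, and lower ones 49 with 3 or more cytosines and 54 with medians. The mean difference of -2.31 points became -3.79 with each region given equal weight. The share of regions 25 points or more apart between opposite strands of the 2 libraries, 10.4%, became 5.38% with 10 or more CpG pairs. The alternatives on the promoter table's start, known strands, distinct sets of cytosines, whole genes and CpG pairs were chosen after seeing the data.

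Of 91 named gene ends 50 passed 25 points under every alternative and 39 dropped below it under at least 1. Signs turned for Cldn34b1 (-66.7 points on strand 1 alone) and Hes3 (-0.61 in a window of 500 bp on each side). Mean differences over whole genes turned with strands averaged for Acvr1c (0.19), Cttnbp2nl (4), Dll4 (0.70), Etnk1 (6.72) and Rassf4 (1.61), with 10 or more cytosines for Etnk1 (6.20) and Rassf4 (1.18), and for Rassf4 with centring (0.00196) and with shifted regions (3.22). For 31 of 60 pairs of list and direction the share of called regions less that of all regions changed sign under at least 1 of 8 alternatives; the shares of higher regions for the Hox, other homeobox, Pax to forkhead, pluripotency and trophoblast lists and of lower regions for the endothelial and neuronal lists did not.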

Other observations

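The lower level in P5_LCDM was spread over the genome. In 2621 bins of 500 kb with 20 or more regions of a density under 15, the mean difference was below 0 in 2119 (80.8%), with a median of -3.50 points and quartiles of -6.77 and -0.72. It reached -10 points or less in 303 bins and 10 or more in 3. The lowest bins were on chromosome 13, at -21.7 and -20.1 points on the sides of a shared border near Irx1, and on chromosome 18 at Setbp1 (-21.0 points). The highest were at Nfib, a nuclear factor I gene related to Nfix (11.8 points), at Celf4 (10.8 points) and at the Hoxd cluster (10.4 points, 53.7% against 43.4%). At the Nfib bin P5_2iL and P5_2iL_F had 88.8% and 86.9%, above P5_LCDM (83.7%) and P5_a2iL (72.0%).

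The sex chromosomes and chromosome 16 held the largest shares of lower regions. On the Y chromosome the mean level over shared cytosines was 74.0% in P5_LCDM and 85.3% in P5_a2iL, and 11.8% of regions were lower. On the X chromosome it was 50.8% and 56.0%, with 11.3% lower, and on chromosome 16 45.6% and 49.2%, with 10.2% lower. On the X chromosome the class of 30 or more cytosines within 100 bp had 7.11% in P5_LCDM, 6.47% in P5_a2iL, 5.99% in P5_2iL, 5.93% in P5_2iL_F and 5.07% in muscle.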
